A study of Mus musculus with 8 samples.

Results

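Cholesterol is built from acetyl-CoA in a long enzymatic pathway, and 8 genes of that pathway and of its control are described here in Lewis lung carcinoma (LLC) tumors with and without Ago2. They are Hmgcs1, Idi1, Fdft1, Sqle, Lss and Cyp51, which encode enzymes of the pathway, Srebf2, which encodes its main transcription factor, and Ch25h, which encodes the enzyme that makes 25-hydroxycholesterol. The genes were chosen by name, as the rows of the count table whose Ensembl identifier maps to these symbols in GENCODE M21, and they are 8 of 55487 rows. All 8 had enough counts to be tested, as had 16061 genes in all.

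LLC is a mouse lung carcinoma line that grows in C57BL/6J mice. Unedited (wild-type) or Ago2 knock-out (ΔAgo2) LLC cells were implanted under the skin of syngeneic, immunocompetent female mice that carried no edited gene themselves, and tumors were taken at day 12 with no drug given. There were 4 wild-type and 4 ΔAgo2 tumors, each from its own mouse, and poly(A) RNA of the bulk tumor was sequenced. The knock-out cells were made with a lentivirus carrying Cas9 and an Ago2 guide, selected with puromycin and grown from single sorted cells, so that editing, selection and clonal origin cannot be told apart from the loss of Ago2. The mice were bought at 6 to 8 weeks of age and kept for 7 days before implantation. The vector history of the wild-type cells is not given in the sources used here.

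Mammalian cells sense their own cholesterol in the endoplasmic reticulum. When it is scarce, SCAP carries the SREBP-2 protein (the product of Srebf2) to the Golgi, where proteases free its transcription factor domain, which then switches on nearly every enzyme of the pathway. When it is plentiful, INSIG proteins hold SCAP back and the pathway is turned down. 25-hydroxycholesterol, made in interferon-stimulated macrophages among other cells, binds INSIG and shuts the same system down.

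The stretches of DNA just before the transcription starts of 3 members and of Insig1 are shown because 2 of them (Hmgcs1 and Insig1) differed between the tumors in the main test and the other 2 (Srebf2 and Ch25h) did not. Each is the 250 bases before the start site in RefSeq (GRCm38.p6), read 5′ to 3′ on the gene's strand. Capitals mark the letters TCACNCCA, the core of the sterol response element bound by SREBP proteins, and CCAAT, the NF-Y motif that often lies near it, which reads ATTGG where it is on the other strand.
Hmgcs1, chr13:119690101-119690350, plus strand: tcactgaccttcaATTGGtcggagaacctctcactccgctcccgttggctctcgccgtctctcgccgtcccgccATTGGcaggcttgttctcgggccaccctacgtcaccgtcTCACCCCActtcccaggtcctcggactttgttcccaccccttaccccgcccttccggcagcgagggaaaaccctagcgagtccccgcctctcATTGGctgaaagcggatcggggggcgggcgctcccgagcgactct
Insig1, chr5:28071162-28071411, plus strand: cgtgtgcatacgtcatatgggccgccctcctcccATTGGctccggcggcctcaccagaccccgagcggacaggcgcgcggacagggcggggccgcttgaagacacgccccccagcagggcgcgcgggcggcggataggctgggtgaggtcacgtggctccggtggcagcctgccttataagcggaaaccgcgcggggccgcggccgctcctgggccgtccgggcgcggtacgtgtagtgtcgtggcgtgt
Srebf2, chr15:82147019-82147268, plus strand: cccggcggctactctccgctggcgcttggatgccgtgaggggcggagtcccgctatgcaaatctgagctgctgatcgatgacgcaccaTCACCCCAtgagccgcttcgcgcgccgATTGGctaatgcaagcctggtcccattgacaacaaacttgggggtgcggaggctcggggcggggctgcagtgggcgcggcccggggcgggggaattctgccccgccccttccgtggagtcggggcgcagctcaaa
Ch25h, chr19:34475149-34475398, minus strand: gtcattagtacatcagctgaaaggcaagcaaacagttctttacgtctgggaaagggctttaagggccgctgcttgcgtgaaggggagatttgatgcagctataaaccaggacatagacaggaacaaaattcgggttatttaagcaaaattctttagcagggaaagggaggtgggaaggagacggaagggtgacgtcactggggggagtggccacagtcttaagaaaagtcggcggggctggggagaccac

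Both strands were searched, and the motifs were chosen after the expression results were known. TCACNCCA was present once in Hmgcs1, with its first base at -137 from the start site, and once in Srebf2, at -162, whereas 3.68% of 32841 RefSeq start regions of the same length held it. CCAAT was present 3 times in Hmgcs1 and once each in Srebf2 and Insig1, against 33.9% of all regions with at least 1 match. The Ch25h region held neither motif, and it also held no match to GAAANNGAA, a core of the interferon-stimulated response element, which 7.13% of regions held. No match says only that these letters are not in these windows. The table of start regions had entries for 6 of the 8 members, of which Idi1, Lss and Cyp51 each held CCAAT (2, 1 and 1 matches) and no TCACNCCA.

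The tumors differed widely in sequencing depth, from 7903288 counts in wild-type tumor 4 to 268564145 in ΔAgo2 tumor 4. All values below are CPM (counts scaled to a common library size) scaled by edgeR's TMM factors unless stated, and precision is limited by the spread between the 4 tumors of a group. The Ago2 transcript did not check the labels, since it was 154 ± 28.9 CPM in wild-type and 239 ± 99.1 CPM in ΔAgo2 tumors (mean ± SD, n = 4 each) and a frameshift need not lower a transcript. Of lung epithelial markers looked up after the fact, Nkx2-1 had 0 counts in all 8 libraries, Sftpc and Scgb1a1 each had counts in 3 of them, and Napsa was at 9.41 to 17.4 CPM. The general epithelial markers Epcam, Cdh1, Krt8 and Krt18 were detected in all 8 libraries, at 0.735 to 4.36, 2.44 to 13.99, 231 to 501 and 257 to 845 CPM. Vim, looked up with them, was at 4610 to 7195 CPM. Of these genes only Cdh1 did not overlap, at most 6.91 CPM in wild-type and at least 8.49 CPM in ΔAgo2 tumors. Of all genes tested, 8.06% did not overlap in that direction. The batch field of the labels holds the same entry for all 8 tumors. ΔAgo2 tumor 1 stood apart from the other knock-out tumors in several of the genes described here, and values without it are given for several of them.

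Of the 8 members, 1 (Hmgcs1) was higher in ΔAgo2 tumors and none was lower at an adjusted p under 0.05 in edgeR's quasi-likelihood test across all genes. In the same test 560 of 16061 genes (3.49%) were called in either direction and 219 (1.36%) were called higher. The values of the groups did not overlap for 2 members, Hmgcs1 and Cyp51, both higher in every ΔAgo2 tumor, while 16.4% of all genes did not overlap in either direction and 8.06% did not overlap with the knock-out tumors higher. The median log2 fold change of the 8 members was 0.37 and that of all genes tested was 0.04. At an unadjusted p under 0.05 in edgeR's test were 3 of the 8 members and 4281 of all 16061 genes. Without ΔAgo2 tumor 1, 3 members were called (Hmgcs1, Idi1 and Cyp51, all higher), against 11% of all genes in that fit. DESeq2 called the same 3 members and 2220 of 30251 genes (7.34%), and limma-voom called these and Sqle and 4476 of 16061 genes (27.9%). DESeq2 was run without a count filter beforehand, so its share counts many low genes that the other 2 tests left out. Its default settings can leave low genes without an adjusted p, and such genes count as not called.

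Hmgcs1 encodes HMG-CoA synthase of the cytosol, which makes the HMG-CoA that enters the pathway. It lies on chromosome 13 (119690379 to 119708260, plus strand, GRCm38). Wild-type tumors 1 to 4 had 65.9, 60.8, 74.3 and 65.9 CPM, and ΔAgo2 tumors 1 to 4 had 79.6, 164.1, 157.8 and 150.6 CPM. Every knock-out tumor lay above every wild-type tumor, and tumor 1 of the knock-out group lay closer to the wild-type group than to its own. The means were 66.7 ± 5.59 and 138 ± 39.3 CPM (SD, n = 4 each), a 2.07-fold ratio. The log2 fold change was 1.05 ± 0.24 (SE; 95% interval 0.52 to 1.58), with an adjusted p of 0.0429 in edgeR's test, close to the threshold of 0.05. The call was lost when any 1 of wild-type tumors 1, 2 and 4 or ΔAgo2 tumors 2, 3 and 4 was left out, with log2 fold changes between 0.94 and 1.23 over all 8 such fits.

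Idi1 encodes isopentenyl diphosphate isomerase, which interconverts the building blocks of all isoprenoids. Its level was low and spread widely, at 9.18, 5.24, 11.2 and 2.29 CPM in the wild-type tumors and 6.75, 26.9, 17.7 and 20.96 CPM in the ΔAgo2 tumors. The groups overlapped only through ΔAgo2 tumor 1, which lay below wild-type tumors 1 and 3. On the log2 scale the difference was 1.34 (95% interval 0.27 to 2.42), with an adjusted p of 0.124 in edgeR's test. Without ΔAgo2 tumor 1 it was 1.602 and was called (adjusted p = 0.0445).

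Fdft1 encodes squalene synthase, the first enzyme committed to sterols. It was at 104 ± 13.6 CPM in wild-type and 114 ± 13.8 CPM in ΔAgo2 tumors, and the groups overlapped almost fully (90.3 to 117 and 96.4 to 127 CPM). The log2 fold change of 0.13 had a 95% interval from -0.27 to 0.53 and an adjusted p of 0.668 in edgeR's test.

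Sqle encodes squalene monooxygenase, which makes the epoxide that is closed into the sterol rings and is a control point of the pathway. It was measured at 114, 86.8, 106 and 93.4 CPM in the wild-type tumors and 96.1, 141, 164 and 142 CPM in the ΔAgo2 tumors. ΔAgo2 tumors 2 to 4 lay above all wild-type tumors and tumor 1 lay among them. Its log2 fold change was 0.44 (95% interval -0.02 to 0.90), with an adjusted p of 0.2 in edgeR's test. It was 0.57 without ΔAgo2 tumor 1 (adjusted p = 0.0551).

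Lss encodes lanosterol synthase, which folds squalene epoxide into the first sterol. It was at 50.9, 49.9, 39.8 and 41.3 CPM in the wild-type tumors and 31.7, 63.7, 63.1 and 63.9 CPM in the ΔAgo2 tumors. The level in ΔAgo2 tumor 1 was the lowest of all 8 tumors, while the other knock-out tumors were within 1 CPM of each other and above the whole wild-type group. A log2 fold change of 0.29 (95% interval -0.25 to 0.83) was not called, with an adjusted p of 0.456 in edgeR's test. Without ΔAgo2 tumor 1 it was 0.47, still not called (adjusted p = 0.0799).

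Cyp51 encodes lanosterol 14-alpha demethylase, the target of azole antifungals in yeasts. It was measured at 86.0, 46.1, 73.2 and 67.8 CPM in the wild-type tumors and 118, 115, 120 and 116 CPM in the ΔAgo2 tumors. The groups did not overlap, and here ΔAgo2 tumor 1 was like the others of its group. The means were 68.3 ± 16.6 and 117 ± 2.01 CPM, a 1.72-fold ratio. The log2 fold change was 0.78 (95% interval 0.32 to 1.24), and its adjusted p of 0.065 in edgeR's test missed the threshold.

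**Figure D1:**
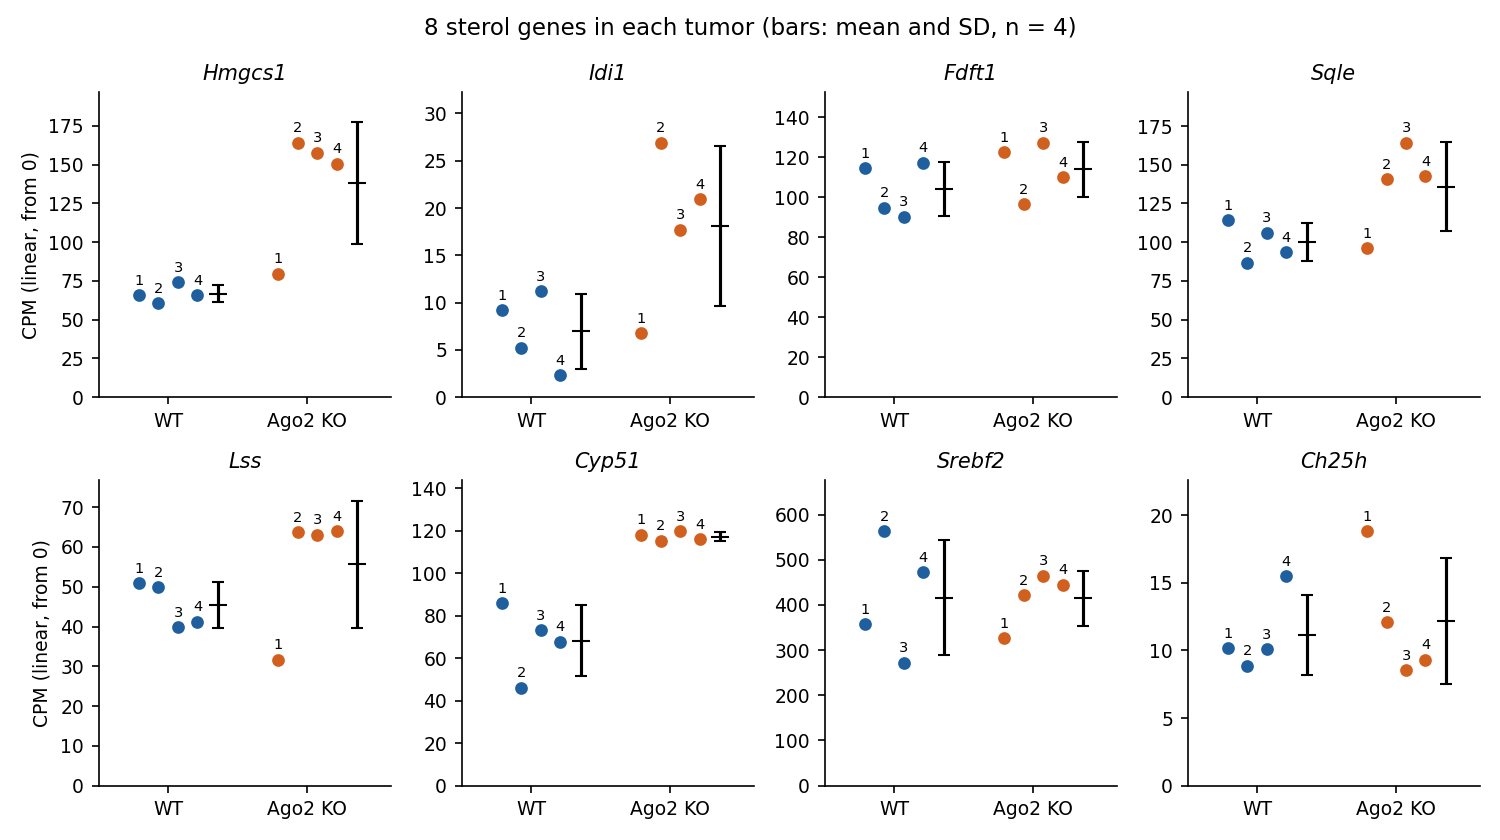
Level of each of the 8 genes in CPM (linear axes that start at 0) in wild-type (blue) and ΔAgo2 (orange) tumors, numbered by replicate, with bars for mean and SD (n = 4). Hmgcs1 and Cyp51 show no overlap between the groups, and ΔAgo2 tumor 1 lies apart from tumors 2 to 4 for Hmgcs1 (79.6 CPM) and Lss (31.7 CPM).

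Srebf2 was by far the most abundant of the 8 transcripts and its means in the groups were close, at 416 ± 128 and 414 ± 61.1 CPM. It was at 357, 563, 272 and 473 CPM in the wild-type tumors and 327, 421, 464 and 445 CPM in the ΔAgo2 tumors, so the wild-type tumors enclosed the whole knock-out range. The log2 fold change was -0.01 (95% interval -0.56 to 0.55), with an adjusted p of 0.991 in edgeR's test. With the correction for GC content described below it became 0.53 (95% interval 0.09 to 0.97; adjusted p = 0.164), and its sign was positive under several other scalings. The activity of SREBP-2 is set by cleavage of the protein, which RNA levels do not measure.

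Levels can be ranked between genes only per length of transcript, for which the deposited TPM values (counts divided by gene length and scaled to a common total) were used. In the wild-type tumors Srebf2 led with 151.7 ± 49.7 TPM (SD, n = 4), followed by Fdft1 at 66.4 ± 9.25, Sqle at 48.1 ± 11.2, Cyp51 at 41.0 ± 12.7, Hmgcs1 at 38.6 ± 7.40, Ch25h at 20.6 ± 1.78, Lss at 11.2 ± 2.68 and Idi1 at 5.56 ± 3.49 TPM. The wild-type values of Srebf2 and Fdft1, of Hmgcs1 and Ch25h, and of Ch25h and Lss did not overlap, while those of Fdft1 and Sqle, Sqle and Cyp51, Cyp51 and Hmgcs1, and Lss and Idi1 did. In the ΔAgo2 tumors Hmgcs1 was at 97.2 ± 40.7 TPM, level with Fdft1 at 84.9 ± 13.9 and Cyp51 at 82.4 ± 16.3 TPM.

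The remaining 15 enzymes between acetyl-CoA and cholesterol did not pass the test in either direction. In the early arm, from acetyl-CoA to farnesyl diphosphate, 0 of 6 enzymes were called by edgeR (1 at an unadjusted p under 0.05, and 1 each by DESeq2 and limma-voom). In all genes, 4281 of 16061 were at that unadjusted p, DESeq2 called 2220 of 30251 and limma-voom 4476 of 16061. The lowest was Fdps, farnesyl diphosphate synthase, at a log2 fold change of -0.60 (95% interval -1.49 to 0.29), where wild-type tumor 4 alone was at 21.3 CPM and the other 7 tumors were between 5.21 and 9.34 CPM. Without wild-type tumor 4 the log2 fold change of Fdps was -0.05. 2 of the 6 early enzymes were above 0 with a median log2 fold change of -0.34, which turned to 4 of 6 and 0.11 with the correction for GC content described below.

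Among the 9 late enzymes, from lanosterol onward, 0 were called by edgeR (5 at an unadjusted p under 0.05, 3 by DESeq2 and 5 by limma-voom). Beside these stand 4281 of all 16061 genes at that unadjusted p, and 7.34% called by DESeq2 and 27.9% by limma-voom. The pair of proteins able to reduce the sterol C14 double bond lay at opposite ends of this list. Lbr, the lamin B receptor of the inner nuclear membrane, was at 41.5 to 86.0 CPM in wild-type and 100 to 117 CPM in ΔAgo2 tumors, with a log2 fold change of 0.78 (95% interval 0.24 to 1.32; adjusted p = 0.094 in edgeR's test). Tm7sf2, its counterpart in the endoplasmic reticulum, was at 9.79 to 26.5 CPM in wild-type and 5.58 to 8.45 CPM in ΔAgo2 tumors, with a log2 fold change of -1.30 (95% interval -2.04 to -0.57; adjusted p = 0.059). The groups did not overlap for either gene. Of the 9 late enzymes, 3 were apart with ΔAgo2 tumors higher and 1 with them lower, beside 16.4% of all genes in either direction. Tm7sf2 was called lower when wild-type tumor 1 or 3 or ΔAgo2 tumor 1 was left out (-1.48 to -0.96 over all 8 such fits), and Lbr was called higher without wild-type tumor 3 (0.64 to 0.98). On all 8 tumors, DESeq2 and limma-voom called Tm7sf2 lower (adjusted p = 0.00526 and 0.00511) and Lbr higher (adjusted p = 0.0413 and 0.0315). Tm7sf2 was also called lower by edgeR without a count filter and with a correction for gene length. Over all 21 enzymes, the 6 members included, 1 was called, 14 had a log2 fold change above 0 and the median was 0.24. Of all 16061 genes, 560 were called and 8427 were above 0. In the summed level of the 21 the groups were apart, at 1027 to 1209 CPM in wild-type and 1252 to 1588 CPM in ΔAgo2 tumors. The sum includes Hmgcs1 and Cyp51. The sums of the 6 early enzymes overlapped (203 to 347 and 262 to 304 CPM). Those of the 9 late enzymes did not (433 to 494 and 535 to 635 CPM).

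**Figure D2:**
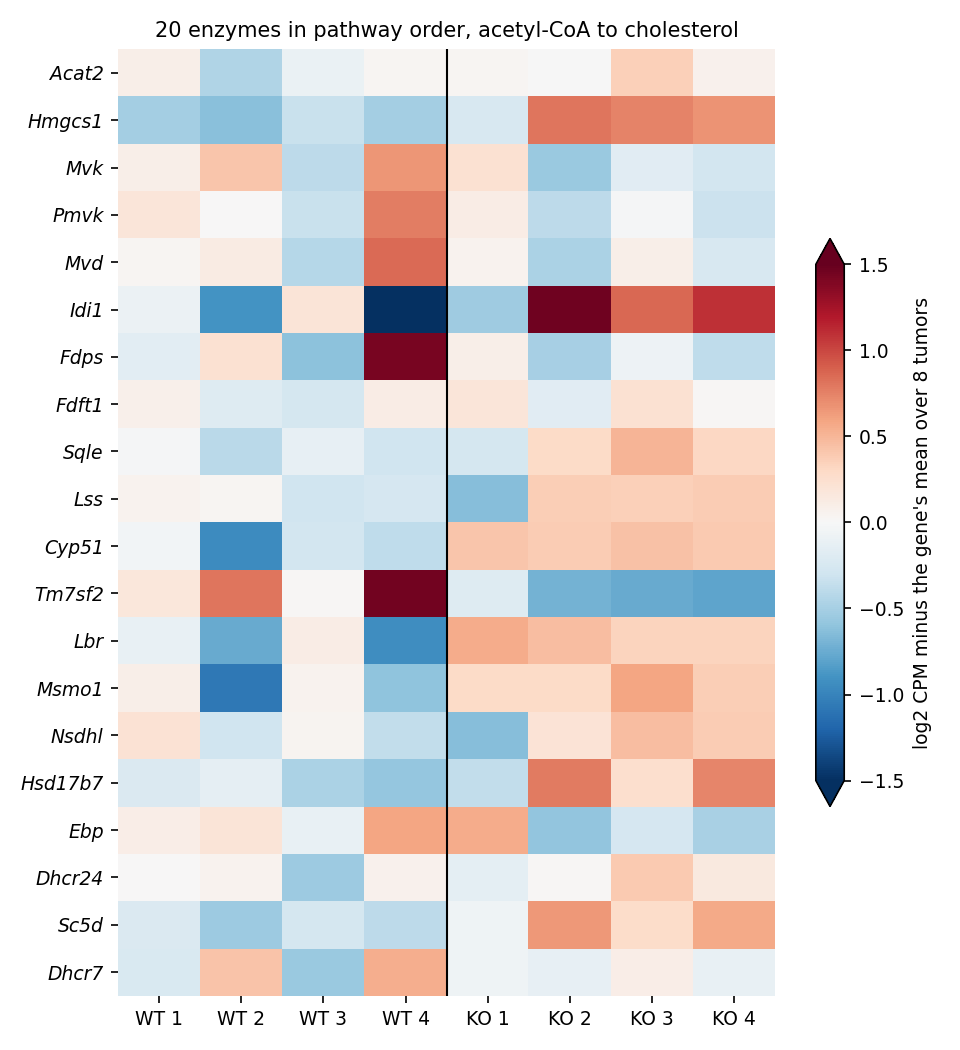
20 of the enzymes in pathway order (rows, acetyl-CoA at the top) in the 8 tumors (columns), colored by log2 CPM minus the mean of the gene over all tumors; colors end at 1.5 in either direction. ΔAgo2 tumors 2 to 4 are red for Hmgcs1, Idi1, Sqle, Lss and Cyp51, ΔAgo2 tumor 1 is blue for 4 of these 5, and Mvk, Fdps and Tm7sf2 are red in wild-type tumors 2 and 4.

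The highest log2 fold change of all 71 sterol genes, members included, was that of Insig1, which encodes the protein that retains SCAP and that is itself a target of SREBP-2. It was at 37.8, 33.0, 43.9 and 35.4 CPM in the wild-type tumors and at 69.9, 118, 109 and 121 CPM in the ΔAgo2 tumors. All knock-out tumors lay above all wild-type tumors, as for 8.06% of all genes, with tumor 1 again the lowest of its group. The ratio of the means was 2.78-fold, and the log2 fold change of 1.47 (95% interval 0.99 to 1.96) passed edgeR's test with an adjusted p of 0.00738. Insig1 remained past the threshold in 20 of 23 alternative analyses, the 8 that left out 1 tumor each included.

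Of the 12 genes of sterol sensing and of sterol-driven protein degradation, edgeR called 3, all higher in ΔAgo2 tumors, beside 1.36% of all genes called higher. DESeq2 called 3 higher and 3 lower and limma-voom 5 higher and 3 lower. Of all genes these tools called 7.34% and 27.9% in either direction. The genes called by edgeR beside Insig1 were Erlin1 and Erlin2, which together form a ring-shaped complex of the endoplasmic reticulum that takes part in that degradation. Erlin1 was at 38.9 to 61.7 CPM in wild-type and 82.9 to 113 CPM in ΔAgo2 tumors, a log2 fold change of 0.95 (adjusted p = 0.0377 in edgeR's test). Erlin2 was at 53.6 to 68.1 and 89.96 to 157.4 CPM, a log2 fold change of 1.01 (adjusted p = 0.0329). At the other end of the list, Srebf1, the sister factor that drives fatty acid synthesis, was at 131 to 321 CPM in wild-type and 104 to 112 CPM in ΔAgo2 tumors. Its log2 fold change of -1.02 (95% interval -1.65 to -0.39) was not called (adjusted p = 0.0725). Scap, the cargo protein for both factors, was at 178 to 471 and 149.3 to 177.7 CPM, with a log2 fold change of -0.96 (95% interval -1.57 to -0.35; adjusted p = 0.0778). For both genes the groups did not overlap, as for 16.4% of all genes in either direction. Wild-type tumors 2 and 4 were the highest for both. In edgeR's test, both were called lower when wild-type tumor 3 was left out. With every tumor kept, DESeq2 and limma-voom called Srebf1 lower (adjusted p = 0.0207 and 0.0381). They also called Scap lower (adjusted p = 0.0244 and 0.0338). Scap was called lower by edgeR with a correction for gene length too (adjusted p = 0.0424).

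The calls beside Insig1 were near the threshold. Erlin1, Erlin2 and the transporter Stard4, described below, lost theirs when any 1 of wild-type tumors 2 and 4 and ΔAgo2 tumors 2, 3 and 4 was left out, with log2 fold changes of 0.85 to 1.09, 0.88 to 1.14 and 0.99 to 1.31 over the 8 fits. Mylip, also below, lost its call in these fits and without wild-type tumor 1, at 0.90 to 1.08.

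**Figure D3:**
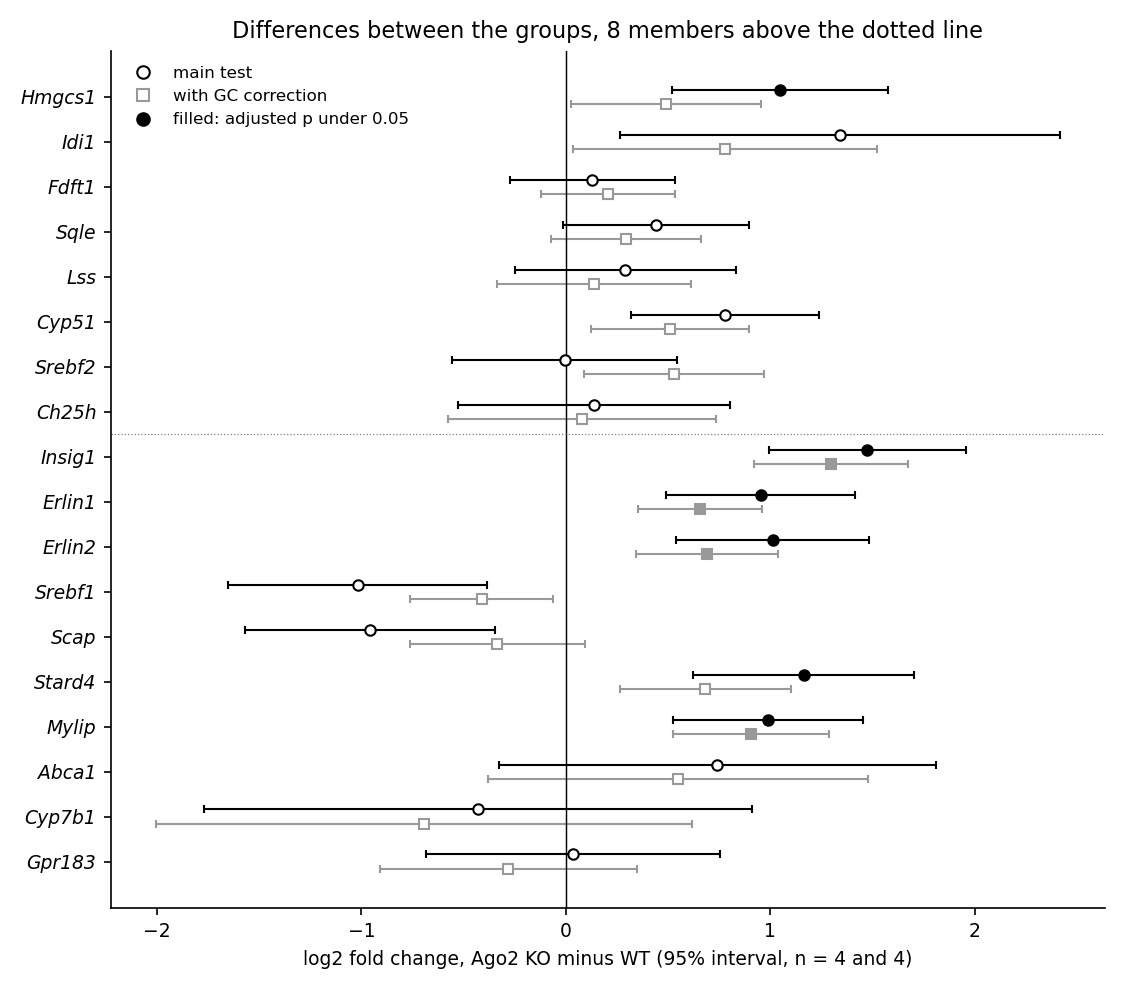
log2 fold change (ΔAgo2 minus wild-type) with its 95% interval for the 8 members, above the dotted line, and 10 other sterol genes, in the main test (black circles) and with the correction for GC content (grey squares); filled marks have an adjusted p under 0.05. Insig1, Erlin1, Erlin2 and Mylip are filled in both, and Hmgcs1 and Stard4 only in the main test.

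The differences moved with the base composition of the transcripts, in these genes as in the whole table. Over the 8 members, the order of the log2 fold changes was the exact reverse of the order of GC content (Spearman's rho = -1 across 8 genes, which are not independent replicates), from Idi1 with 41.9% GC to Srebf2 with 57.9%. Over all genes tested rho was -0.56, and over the 71 sterol genes it was -0.70. Of the 35 sterol genes below the median GC content of 50%, 32 had a log2 fold change above 0, and these 35 held all 6 called sterol genes. Of the 36 at or above it, 10 were above 0. In all genes, the median log2 fold change was 0.71 in the 1606 genes with the least GC and -0.63 in the 1606 with the most.

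When a smooth trend of counts on GC content was removed in each library, 607 genes (3.78%) were called and none of the 8 members was, in edgeR's test with 4 of the 8 at an unadjusted p under 0.05. How many of all genes reached that unadjusted p in this fit was not counted. The median log2 fold change of the members was 0.39 with it, and all 8 were above 0. Hmgcs1 went from 1.05 to 0.49 (95% interval 0.02 to 0.96; adjusted p = 0.216), Idi1 from 1.34 to 0.78 and Cyp51 from 0.78 to 0.51. Insig1 stayed at 1.30 (adjusted p = 0.00301), Erlin1 at 0.66 (adjusted p = 0.0286) and Erlin2 at 0.69 (adjusted p = 0.0399). Scap and Srebf1 came closer to 0, at -0.34 and -0.41. Which part of the gradient belongs to the libraries and which to the tumors was not tested.

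**Figure D4:**
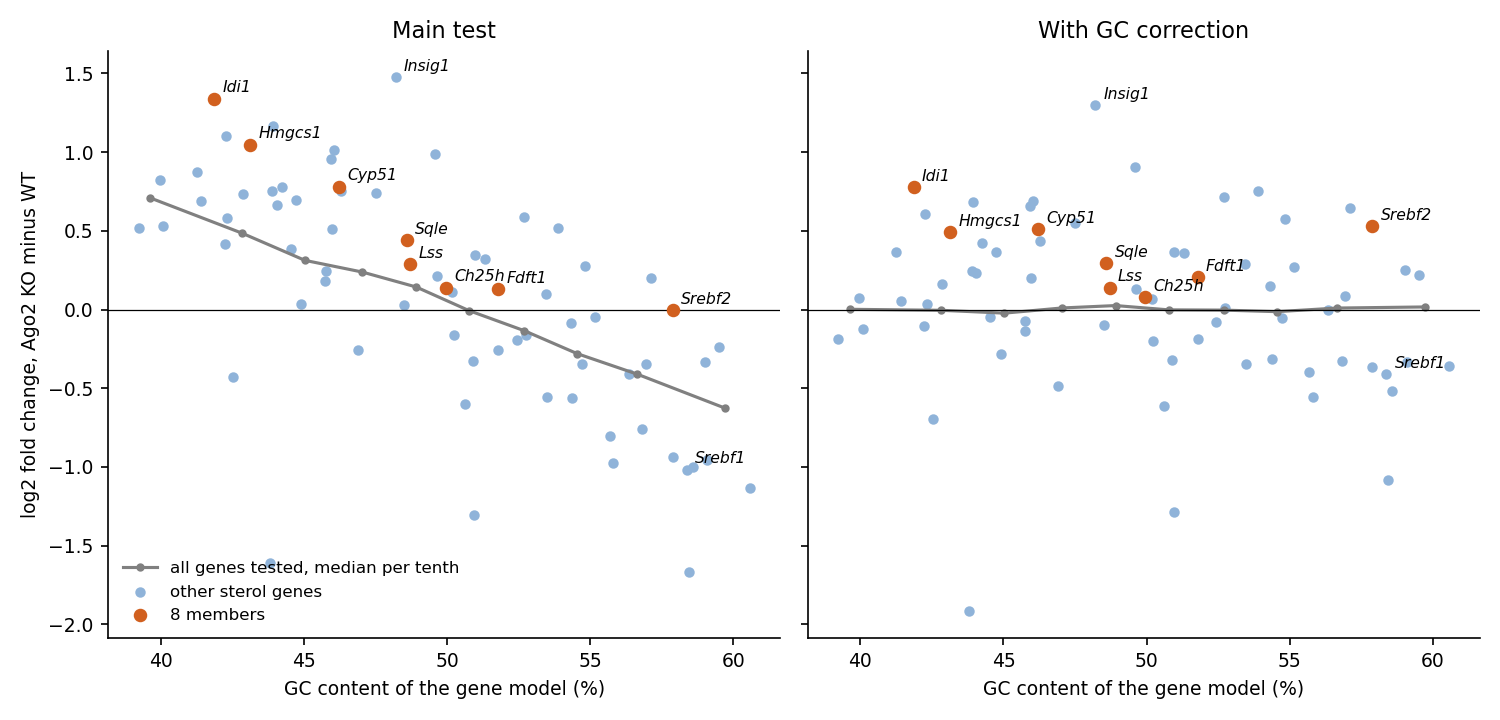
log2 fold change (ΔAgo2 minus wild-type) against the GC content of the gene model for the 8 members (orange) and the other sterol genes (light blue), with the median of all tested genes in 10 equal groups by GC content (grey line), in the main test and with the GC correction. The grey line falls from 0.71 to -0.63 in the main test, and Insig1 lies far above it in both panels.

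In cholesterol uptake and transport to the cell surface, edgeR called 1 of 6 genes, beside 3.49% of all genes. Stard4, a carrier that moves cholesterol between membranes and an SREBP-2 target, was at 26.6 to 37.7 CPM in wild-type and 47.2 to 86.6 CPM in ΔAgo2 tumors, a log2 fold change of 1.16 (adjusted p = 0.0329 in edgeR's test), which became 0.68 (adjusted p = 0.0777) with the GC correction. Vldlr, the receptor for very low density lipoprotein, had the lowest value of the list, -1.61 (95% interval -2.79 to -0.43; adjusted p = 0.103), with 9.56 CPM in wild-type tumor 3 and 0.789 to 3.3 CPM elsewhere. Without wild-type tumor 3 it was -0.84.

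Of 11 genes of oxysterol turnover and of the liver X receptors, which sense oxysterols and turn on cholesterol export, 1 was called by edgeR. The share of all genes called was 3.49%. The list summed to 957 to 1268 CPM in wild-type tumors, to 1482 CPM in ΔAgo2 tumor 1 and to 635 to 727 CPM in ΔAgo2 tumors 2 to 4. Such a sum follows the most abundant genes of the list. The mean log2 CPM of the same 11 genes was 3.31 to 3.41 in wild-type tumors. It was 3.31 in ΔAgo2 tumor 1 and 3.09 to 3.35 in ΔAgo2 tumors 2 to 4. Without ΔAgo2 tumor 1, 3 of the 11 were called, 1 higher and 2 lower, beside 11% of all genes in that fit. The median log2 fold change of the list went from -0.24 to -0.74. Mylip (also named Idol), a ubiquitin ligase that is a liver X receptor target, was at 10.3, 12.2, 13.8 and 10.6 CPM in the wild-type tumors and 20.5, 27.2, 19.8 and 25.96 CPM in the ΔAgo2 tumors. The groups were apart, as for 8.06% of all genes in that direction. The log2 fold change of Mylip was 0.99 (adjusted p = 0.0341 in edgeR's test) and 0.91 with the GC correction (adjusted p = 0.0188). Abca1, the cholesterol exporter that is the best known target of the same receptors, was at 5.01 to 23.9 CPM in wild-type and 10.05 to 35.7 CPM in ΔAgo2 tumors, with a log2 fold change of 0.74 (95% interval -0.33 to 1.81; adjusted p = 0.337). Cyp46a1, a cholesterol hydroxylase known from neurons, was the lowest of the list at -1.67 (95% interval -3.06 to -0.27; adjusted p = 0.133), at 1.58 CPM or less in every tumor.

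No gene of 3 further lists passed edgeR's test. Of all 16061 genes, 4281 had an unadjusted p under 0.05 in it, while DESeq2 called 7.34% of all genes and limma-voom 27.9%. Of 10 genes of trafficking and esterification, 3 had an unadjusted p under 0.05 and 1 was called by DESeq2 and 2 by limma-voom; the values ran from Stard3, a late endosomal sterol carrier (-0.98), to Gramd1c, a sterol carrier at contact sites of the plasma membrane (1.10, from at most 1.23 CPM). Of 9 genes of the non-sterol isoprenoid branch, 1 had an unadjusted p under 0.05, 0 were called by DESeq2 and 1 by limma-voom, and the values ran from Fntb (-0.35) to Pggt1b (0.69), subunits of protein prenyl transferases. Of 10 fatty acid genes driven mainly by SREBP-1, 3 had an unadjusted p under 0.05, 0 were called by DESeq2 and 1 by limma-voom, and the values ran from Fads2 (-0.75), a desaturase, to Elovl6 (0.50), an elongase. Over the 63 sterol genes beside the members, 5 were called, all higher, beside the 1.36% of all genes called higher. The direction was not one-sided by other tools, since DESeq2 called 9 higher and 8 lower and limma-voom 13 higher and 11 lower. Over all genes DESeq2 called 1097 of 30251 higher and 1123 lower, and limma-voom 2393 of 16061 higher and 2083 lower. With ΔAgo2 tumor 1 left out, edgeR called 9 higher and 3 lower, beside 979 higher and 814 lower of all 16301 genes. 35 of the 63 were above 0, with a median log2 fold change of 0.11.

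Ch25h is an interferon-stimulated gene, and it was measured here in tumors whose interferon response genes differed. It was at 10.2, 8.86, 10.1 and 15.5 CPM in the wild-type tumors and 18.8, 12.1, 8.53 and 9.33 CPM in the ΔAgo2 tumors. The lowest and the highest of all 8 values were both knock-out tumors. The means were 11.1 ± 2.94 and 12.2 ± 4.67 CPM, and the log2 fold change was 0.14 (95% interval -0.53 to 0.80; adjusted p = 0.789 in edgeR's test). Without ΔAgo2 tumor 1 the log2 fold change was -0.15.

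In the same tumors, 15 interferon response genes that the study had picked out on these samples summed to 243 to 493 CPM in wild-type and 991 to 1158 CPM in ΔAgo2 tumors. All 15 were above 0 and 7 were called higher, which is not independent evidence of their direction. The sums were 493, 243, 399 and 264 CPM in wild-type tumors 1 to 4 and 1054, 1158, 991 and 993 CPM in ΔAgo2 tumors 1 to 4. The 10 macrophage markers, all detected in every library, summed to 2088 to 2579 CPM in wild-type and 1788 to 3787 CPM in ΔAgo2 tumors. 0 of 10 were called by edgeR (2 at an unadjusted p under 0.05, beside 4281 of all 16061 genes), and the highest sum was in ΔAgo2 tumor 1, where Ch25h was also highest. Without that tumor 2 of the 10 were called, both lower, beside 11% of all genes. The median log2 fold change of the 10 went from -0.05 to -0.29. On all 8 tumors limma-voom called 3 lower, beside 27.9% of all genes in either direction. In bulk tumors fewer macrophages and less RNA per macrophage cannot be told apart, and the part of macrophage content in the level of Ch25h was not tested.

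**Figure D5:**
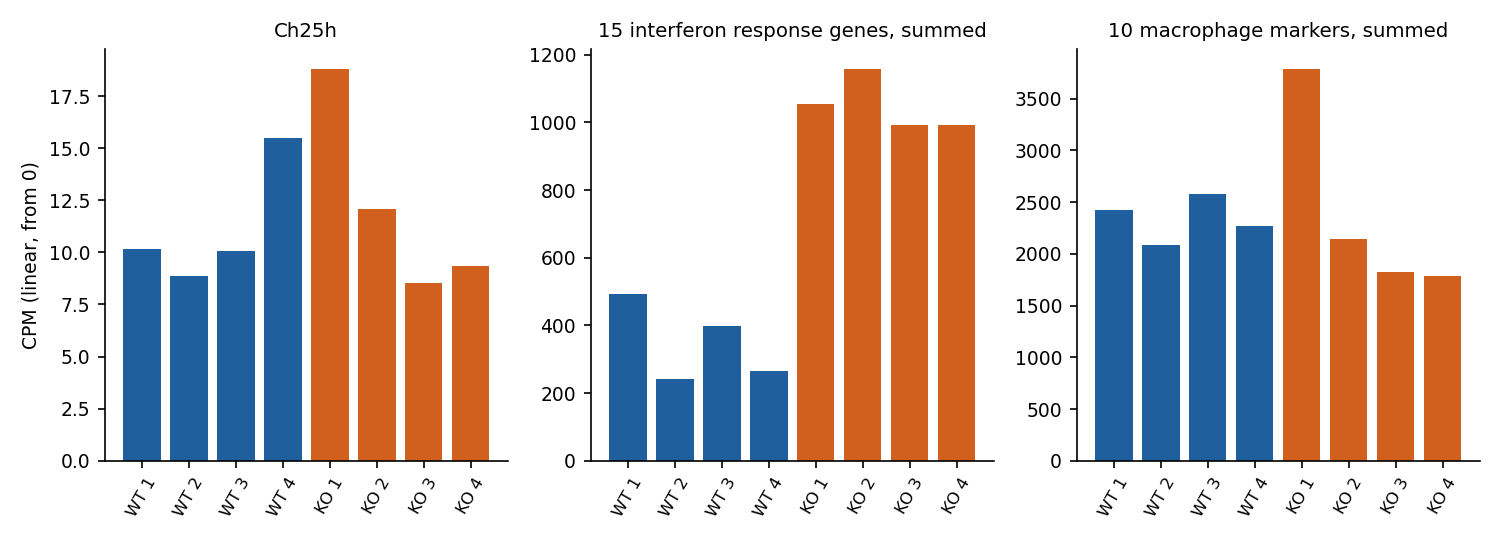
Ch25h, the sum of 15 interferon response genes and the sum of 10 macrophage markers in each tumor (bars from 0, CPM; wild-type blue, ΔAgo2 orange, labeled KO). The interferon sums of the groups are apart (at most 493 and at least 991 CPM), while Ch25h is highest in ΔAgo2 tumor 1 (18.8 CPM) and wild-type tumor 4 (15.5 CPM).

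The partners of Ch25h in oxysterol signaling were at low levels and overlapped between the groups. Cyp7b1, the hydroxylase that carries 25-hydroxycholesterol on to the chemoattractant 7-alpha,25-dihydroxycholesterol, was at 0.619 to 4.45 CPM in wild-type and 0.789 to 2.99 CPM in ΔAgo2 tumors, with a log2 fold change of -0.43 (95% interval -1.77 to 0.91). Gpr183 (EBI2), the receptor for that product on lymphocytes and dendritic cells, was at 2.58 to 7.94 and 4.65 to 6.44 CPM, with a log2 fold change of 0.04 (95% interval -0.68 to 0.75). Neither was called by edgeR, with adjusted p of 0.67 and 0.954.

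Srebf2 also hosts a microRNA. The hairpin of Mir33 lies in an intron of Srebf2 (chr15:82198122-82198190, plus strand, GRCm38.p6), and its mature 5p strand is shown because the 3′ UTR of Abca1 holds matches to its seed (bases 2 to 8, in capitals). The RefSeq sequences are these.
mmu-miR-33-5p: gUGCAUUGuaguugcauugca
Abca1 3′ UTR, chr4:53033783-53033812, minus strand: tattCAATGCAATGCActtCAATGCAacga
The capitals in Abca1 mark the letters CAATGCA, the complement of the seed, which occur 3 times in this window of 30 bases from the GENCODE M21 transcript (the first 2 sites overlap). The letters occurred in the longest annotated 3′ UTR of 1482 of 20587 protein-coding genes (7.2%) and in 6 of the 71 sterol genes (8.45%), among them Nsdhl, Gpr183, Abca1, Abcg1 and Soat2. No member of the 8 held them, and none of these 6 genes was called in edgeR's test (2 had an unadjusted p under 0.05, and 1 was called by DESeq2 and by limma-voom). In all genes, 4281 of 16061 had such an unadjusted p. The row of the hairpin had 0 counts in all 8 libraries, which allows up to 3 counts in each, and a poly(A) library does not measure mature microRNAs.

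Markers of skin, muscle and fat varied between the tumors. For the counts that follow, 4281 of all 16061 genes were at an unadjusted p under 0.05 in edgeR's test and 560 were called. 10 keratinocyte markers summed to 16.2 to 622 CPM in wild-type and 523 to 995 CPM in ΔAgo2 tumors, with 1 of 10 called higher and Trp63 at 0 counts in at least 1 library. 10 skeletal muscle markers summed to 257 to 3939 CPM in wild-type and 44.2 to 215 CPM in ΔAgo2 tumors, with 0 of 10 called by edgeR (10 at an unadjusted p under 0.05) and the highest sum in wild-type tumor 3. 8 adipocyte markers summed to 21.1 to 206 CPM and 10.7 to 370 CPM, with 0 of 8 called (0 at an unadjusted p under 0.05), Lep and Retn at 0 counts in at least 1 library and the highest sum in ΔAgo2 tumor 1. Sebocytes, which make the lipids of sebum, were represented by 7 markers, of which 5 could be tested and 0 were called (0 at an unadjusted p under 0.05), with sums of 2.18 to 23.2 and 3.5 to 33.6 CPM. 8 fibroblast markers summed to 4932 to 7261 CPM in wild-type and 2317 to 4734 CPM in ΔAgo2 tumors, with 0 of 8 called (6 at an unadjusted p under 0.05). 8 pan-leukocyte markers summed to 818 to 1198 and 743 to 1342 CPM, with 0 of 8 called (1 at an unadjusted p under 0.05). The part of these cells in the levels of the sterol genes was not tested.

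8 endothelial markers summed to 123 to 186 CPM in wild-type and 121 to 165 CPM in ΔAgo2 tumors, 8 dendritic cell markers to 33.8 to 47.8 and 37.7 to 57.3 CPM, 6 neutrophil markers to 75.6 to 132 and 70.7 to 118 CPM, and B cell markers, of which 3 of 6 could be tested, to 1.72 to 4.1 and 2.9 to 4.31 CPM. None of these lists had a gene called by edgeR, and 0, 2, 0 and 0 of their genes were at an unadjusted p under 0.05. Of all 11 marker lists, DESeq2 called genes in 5 (5 muscle, 2 fibroblast, 2 keratinocyte, 2 dendritic cell and 1 pan-leukocyte marker), and limma-voom called none only among the adipocyte, endothelial and B cell markers. DESeq2 gave a p for only 5 of the 10 muscle and 5 of the 8 adipocyte markers.

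The genes whose pattern over the 8 tumors was most like that of the 6 enzymes were sought among 13073 genes with a mean of at least 1 CPM, by the root mean square difference of standardised log2 CPM. The closest to the mean of the 6 enzymes were Igf2bp3 (0.14), Serinc3 (0.15), Dusp16 (0.17), Kif23 (0.20) and Mki67 (0.20). That mean was taken before standardising, so the enzymes that varied most weigh most in it. Around its own mean, log2 CPM ran from -2.09 to 1.46 in Idi1 and from -0.26 to 0.23 in Fdft1. Igf2bp3 ran at 7.74 to 19.3 CPM in wild-type tumors, at 16.5 CPM in ΔAgo2 tumor 1 and at 34.6 to 35.99 CPM in ΔAgo2 tumors 2 to 4. Those closest to Ch25h were Mmaa (0.19), Lactb (0.24), Smim14 (0.26), Isy1 (0.29) and H2-DMb2 (0.31), each highest in ΔAgo2 tumor 1 and, after it, in wild-type tumor 4. These likenesses are given as a description.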

How the data were processed

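Illumina stranded mRNA libraries of 8 bulk tumors were used, 4 per group as the labels give it. The authors deposited raw counts per gene, and TPM values in which they divided counts by gene length. Per the labels, reads were aligned with STAR to mm10. The annotation release, the strand setting and the filters are not given in the sources used here, nor is the method for tumors, since the methods describe cultured cells. Columns were assigned to tumors by the library names in the labels. TPM was used only for levels between genes and for alternatives. Identifiers matched GENCODE M21 (99.3% with their version; Fdft1 without it), from which gene models, lengths and GC content came. Reads of overlapping genes may be split or shared in unknown ways.

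edgeR 4.0.16 in R 4.3.3 was fitted to the counts of all genes: filterByExpr, TMM scaling, a quasi-likelihood test of ΔAgo2 against wild-type and Benjamini-Hochberg adjustment over 16061 genes with a threshold of 0.05. Every edgeR p in the text is from this test, unless a fit without 1 tumor or with a correction is named beside it. Those fits were adjusted over their own genes. A prior count of 2 was used only for the log2 CPM values of the likeness search, the list means and the check of pairing. Log2 fold changes were taken from each fit with its default settings. In the GC and length corrections, a smooth trend of log counts was removed per library as an offset. DESeq2 1.42.0 and limma 3.58.1 (voom with quality weights, and on log2(TPM + 1)) were alternatives, as were other filters and scalings, each tumor left out, counts thinned to the shallowest library and a replicate block. DESeq2 had no count filter before its fit, so its shares are of the 30251 genes with a p, with or without an adjusted p. The scripts were tested on simulated counts. Depth ran from 7903288 to 268564145 counts, and up to 3 counts are possible behind a 0. No pair of libraries of a group agreed within sampling noise.

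The members and lists were chosen with earlier results of these data known. Genes were named by rule: the members, every called gene of the sterol and SREBP-1 lists, the highest and the lowest of each list, and Insig1, Srebf1, Scap, Abca1, Cyp7b1 and Gpr183; some genes under this rule are not reported here. Marker and interferon lists are given as counts and sums. No protein sequences were used here.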

Additional observations from a re-analysis of the deposited data

Results flagged for a closer look

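In 58 groups of 4 tumors (29 named genes in 2 genotypes), the lowest or highest tumor was tested for its gap to the others with Dixon's criterion at the 95% level. Chance flags about 1 group in 20, here 2.9, and 5 groups were flagged. 3 of the 5 were ΔAgo2 tumor 1. Hmgcs1 was at 79.6 CPM in it and at 150.6 to 164.1 CPM in the other knock-out tumors. Lss was at 31.7 CPM in it and at 63.1 to 63.9 CPM in the others. Tm7sf2 was at 8.45 CPM in it and at 5.58 to 5.94 CPM in the others, so that all 3 genes lay nearer to the wild-type tumors there or, for Lss, below them. Stard4 was highest in wild-type tumor 1, at 37.7 CPM beside 26.6 to 26.8 CPM. Cyp46a1 was highest in wild-type tumor 4, the shallowest library, at 1.58 CPM beside 0.42 to 0.524 CPM.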

How the results depend on the processing

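The main test called 1 member, 5 of the 63 other sterol genes and 560 genes in all. In that order of counts, library totals alone gave 0 members, no count filter gave 983 genes in all, DESeq2 gave 3, 17 and 2220, limma-voom 4, 24 and 4476, limma on log2(TPM + 1) 0, 1 and 153, the same with 0.1 in place of 1 gave 0, 0 and 107, and without a filter 0, 0 and 77. The GC correction called 0 members and the length correction 2, 9 and 1177. Leaving out each tumor in turn gave 0 to 3 members, 1 to 12 other sterol genes and 88 to 1793 genes. Same-numbered tumors did not deviate together, with correlations of -0.24, 0.10, -0.04 and -0.29 beside -0.22 to 0.32 for the other pairs. No pairing by number was seen, though a check on so few tumors cannot exclude one. With the replicate block 0, 0 and 70 were called, with the block and the GC correction 0, 1 and 313, and with the block and the length correction 0, 1 and 148.

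Hmgcs1 was called in 9 of 23 alternatives, Insig1 in 20, Erlin1 and Erlin2 in 12 each, Stard4 in 11 and Mylip in 10, each with the same sign in all 23. Srebf2, at -0.01 in the main test, was above 0 with library totals (0.076), no count filter (0.065), limma-voom (0.30), TPM (0.25 with each pseudocount and filter), the block (0.032), the GC correction (0.53), the block with it (0.52) and in 3 of 8 fits without 1 tumor (-0.16 to 0.18). Ch25h turned to -0.086 in limma-voom and ranged from -0.15 to 0.34 without 1 tumor. With the length correction, alone and with the block, Lss turned to -0.0496 and -0.0556. Cyp7b1 turned to 0.048 on log2(TPM + 0.1) and ranged from -0.93 to 0.27 without 1 tumor. Gpr183 turned to -0.43 in limma-voom, -0.28 with the GC correction, -0.23 with the block and that correction, -0.14 after thinning and ranged from -0.17 to 0.28 without 1 tumor. None of these was called under any setting, and the cause of each change was not tested. Depth limits the low genes most: wild-type tumor 4 resolves about 0.43 CPM.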
